A study of Homo sapiens with 6 samples.

Results

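Chemokines of the CXCL family and the regulators of the transcription factor NF-kB were followed in the established human glioblastoma line LN-229, as 10 genes: the chemokine genes CXCL1, CXCL2, CXCL3, CXCL8 and CCL2, the NF-kB subunit genes NFKB1 and RELA, and the NF-kB inhibitor or modulator genes NFKBIA, NFKBIZ and TNFAIP3. The genes were chosen by symbol, through their Ensembl gene IDs, out of 58174 genes measured, with earlier results of these data known. The RNA, from nuclear-enriched material with ribosomal RNA removed, was sequenced in 3 libraries labelled control-NC and 3 labelled sh-JMJD1C, a name that normally stands for a short hairpin directed at JMJD1C, a JmjC-domain histone demethylase. Both groups are the same line. The labels give neither a time, nor the number of hairpins, nor whether libraries came from separate cultures, so p-values measure only the spread between these libraries. The files give FPKM (fragments per kilobase of gene length and 1e6 fragments of the library), whose steps give back the whole reads behind each value. By these recovered reads, used for all read counts here, the libraries held 544442 to 2960454 reads in the controls, control 1 being the smallest, and 1660561 to 1919675 in the sh-JMJD1C group.

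As background, NF-kB is a dimer of Rel proteins such as p50, made from NFKB1, and p65, the product of RELA, which IkB proteins hold in the cytoplasm. After a stimulus the IKK kinases mark IkB for destruction, the dimer enters the nucleus, and it switches on chemokine genes together with genes for its own brakes, among them NFKBIA (IkB-alpha) and TNFAIP3 (the ubiquitin editor A20). NFKBIZ encodes IkB-zeta, a nuclear IkB protein that works as a cofactor at a subset of these genes. CXCL1, CXCL2, CXCL3 and CXCL8 attract neutrophils and CCL2 attracts monocytes, and gliomas are known to draw in myeloid cells through such ligands.

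The promoters of the genes with the clearest differences are shown. They share a match to a binding motif of NF-kB, and their RNA levels moved in different directions. The RefSeq windows (GRCh38.p14) run from 250 bases before to 50 bases after the annotated start, and 9 of the 10 genes had one. Capitals mark the bases that match the NF-kB consensus, searched on both strands, with matches that overlap on the 2 strands counted as 1 site.
CXCL2 promoter window, chr4:74099146-74099445, minus strand: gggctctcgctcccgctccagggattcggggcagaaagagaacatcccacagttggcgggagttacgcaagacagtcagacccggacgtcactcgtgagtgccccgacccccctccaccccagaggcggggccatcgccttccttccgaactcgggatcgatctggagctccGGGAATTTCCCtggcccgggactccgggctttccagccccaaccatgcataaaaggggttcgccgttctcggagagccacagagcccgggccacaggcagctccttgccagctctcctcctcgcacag
NFKBIZ promoter window, chr3:101827740-101828039, plus strand: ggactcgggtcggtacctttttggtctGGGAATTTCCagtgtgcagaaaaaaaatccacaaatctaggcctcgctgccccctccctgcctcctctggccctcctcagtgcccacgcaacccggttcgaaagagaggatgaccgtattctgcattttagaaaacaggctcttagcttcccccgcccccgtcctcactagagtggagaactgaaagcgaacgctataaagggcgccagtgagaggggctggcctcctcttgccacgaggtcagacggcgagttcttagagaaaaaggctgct
NFKBIA promoter window, chr14:35404700-35404999, minus strand: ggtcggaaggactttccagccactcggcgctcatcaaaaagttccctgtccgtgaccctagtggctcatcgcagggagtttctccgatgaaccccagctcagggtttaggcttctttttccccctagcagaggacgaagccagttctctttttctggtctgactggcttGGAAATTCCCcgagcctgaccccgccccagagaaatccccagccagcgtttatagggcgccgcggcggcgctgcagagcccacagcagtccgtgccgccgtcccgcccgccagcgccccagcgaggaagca
The consensus occurred in 7 of the 9 windows, against 10.8% of all 27305 windows of this length and 12.95% of the 9295 windows of genes tested below. The genes were picked as chemokines and NF-kB regulators, so a high share was likely before the search. The windows of CXCL1, CXCL2 and CXCL3 are also much alike and do not count as independent. CXCL8 and RELA had no match, which says only that these letters are not in their windows.

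The sites of the GRO chemokine genes (CXCL1, CXCL2 and CXCL3), the NF-kB subunit gene NFKB1 and the inhibitor gene TNFAIP3 are given with 10 bases on each side, so that they can be compared. The 2 TNFAIP3 sites lie so close that each stretch also shows capitals of the other.
CXCL1, chr4:73869314-73869324 in capitals: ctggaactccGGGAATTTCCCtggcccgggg
CXCL2, chr4:74099263-74099273 in capitals: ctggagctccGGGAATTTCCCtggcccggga
CXCL3, chr4:74038758-74038768 in capitals: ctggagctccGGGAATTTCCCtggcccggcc
NFKB1, chr4:102501310-102501319 in capitals: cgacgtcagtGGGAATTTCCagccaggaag
TNFAIP3, chr6:137867192-137867201 in capitals: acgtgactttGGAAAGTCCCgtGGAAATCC
TNFAIP3, chr6:137867204-137867213 in capitals: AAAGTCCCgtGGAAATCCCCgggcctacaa
CXCL1, CXCL2 and CXCL3 carry the same 11 bases at -79 to -69, -78 to -68 and -79 to -69 from the start. Their windows are identical at 240 of 300 bases between CXCL1 and CXCL2, 254 between CXCL1 and CXCL3 and 236 between CXCL2 and CXCL3. TNFAIP3 has 2 sites, at -67 to -58 and -55 to -46. Binding at these sites was not measured, and their part in the levels below was not tested. CXCL1 had 0 reads in all 6 libraries, and the share of reads given to each GRO gene is uncertain.

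The libraries were checked against their labels and for other cells. JMJD1C lay lower in all 3 sh-JMJD1C libraries than in any control, at 0.645 ± 0.388 against 3.50 ± 1.10 scaled FPKM (mean ± SD over the 3 libraries of a group, here and below). The change was -1.82 on the log2 scale in the limma fit described below (adjusted p = 0.118) and -2.49 on recovered reads (limma-voom adjusted p = 0.0253), or -1.75 with the trend over transcript length removed (0.0461). Scaled FPKM is the deposited FPKM divided by a median-ratio factor per library. Of 12 glioma and astroglial markers 7 were detected: VIM (vimentin), CD44 and EGFR were abundant, GFAP had 15 reads over all libraries and SOX2 had 2, and OLIG2, S100B, FABP7, SLC1A3 and AQP4 had 0. EGFR had 1136 ± 37.2 scaled RPM (reads per 1e6 reads, or RPM, after median-ratio scaling) in the controls against 440 ± 272 (limma-voom adjusted p = 0.0587). Its log2 fold change on reads was -1.54, and -0.72 with the length trend removed (limma-voom adjusted p = 0.241). Of 16 myeloid and microglial markers, 9 had 0 reads in every library, among them AIF1, TYROBP and LYZ. The summed level of all 16 was 0.499 to 4.73 RPM over the controls, against 0.521 to 3.58 over the sh-JMJD1C libraries, and PTPRC (CD45) had 1 read. The groups also differed in make-up: the nuclear RNA MALAT1 made up 1.251% to 2.40% of control reads and 0.0915% to 0.292% of sh-JMJD1C reads. The RN7SL genes, which encode the signal recognition particle RNA, made up 15.7% and 18.5% in sh-JMJD1C 2 and 3 and 1.18% in sh-JMJD1C 1, which lies within the 0.378% to 1.77% of the controls. Mitochondrial genes made up 2.93% to 8.70% in the controls, 12.6% in sh-JMJD1C 1, above all controls, and 1.33% and 1.70% in sh-JMJD1C 2 and 3, below all controls. The part of these shares in the results was not tested.

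**Figure D1:**
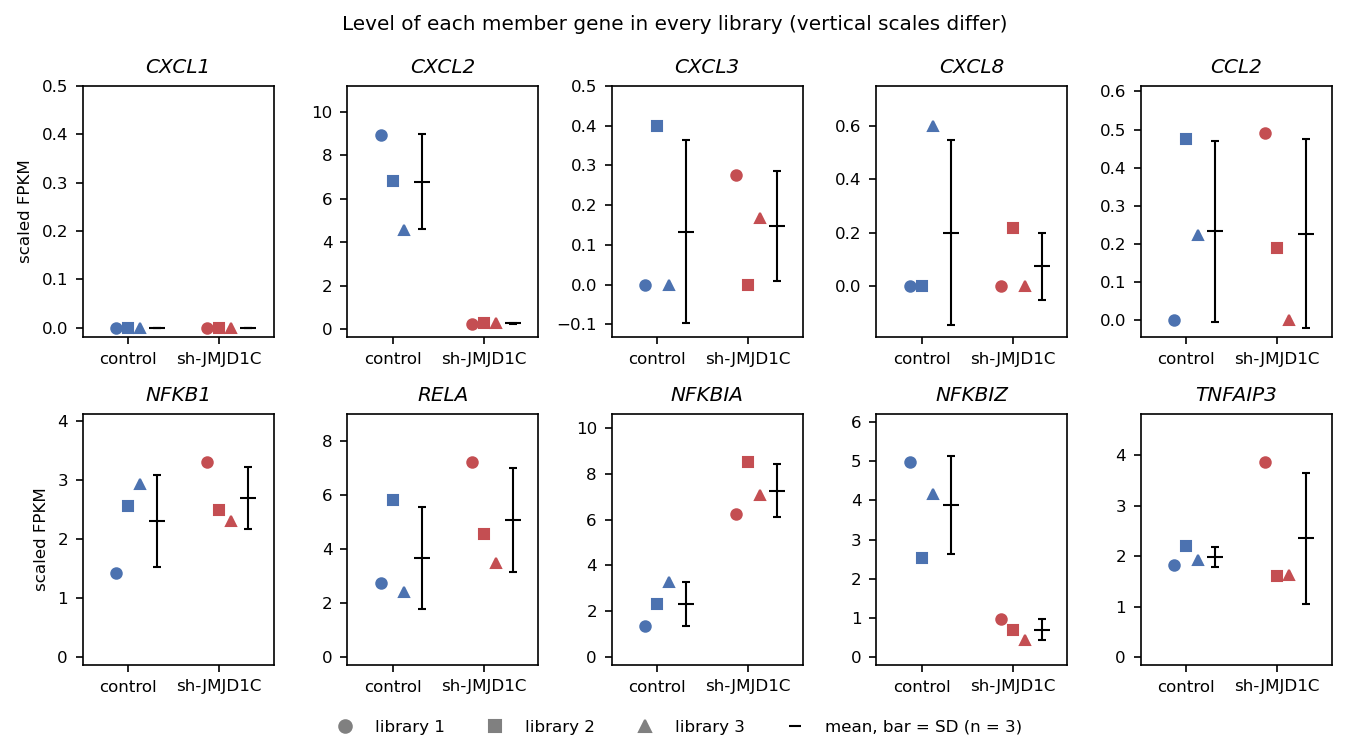
Scaled FPKM (vertical axis, from the deposited FPKM) of the 10 genes in the 3 control (blue) and 3 sh-JMJD1C (red) libraries, with the mean and SD beside the points and a separate vertical scale for each gene. CXCL2 and NFKBIZ lay below all controls in the 3 sh-JMJD1C libraries, NFKBIA lay higher, and the other 7 genes overlapped or were at 0.

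Among the chemokines, CXCL2 was nearly lost in the sh-JMJD1C libraries and was the 1 ligand of the 5 with more than 11 reads in all. In the NF-kB group, NFKBIZ was lower, at 18.1% of the control mean, and NFKBIA was higher, at 3.13 times the control mean. NFKB1, RELA and TNFAIP3 overlapped between the groups. The limma test on log2(scaled FPKM + 0.5) called 1 of the 6 members with a mean FPKM of at least 0.5 (CXCL2), against 0.185% of all 18383 genes tested (0.0598% higher and 0.125% lower). A fit on whole reads recovered from the FPKM (limma-voom, genes with at least 60 reads) called 3 of the same 6 (CXCL2, NFKBIZ and NFKBIA), against 5.52% of 11877 genes (3.71% higher and 1.81% lower). Since the members were chosen with earlier results of these data known, their shares called do not measure enrichment over all genes. CXCL1, CXCL3, CXCL8 and CCL2 passed neither filter. CXCL2 passed both only through the controls, with 91 reads there against 3 in the sh-JMJD1C libraries. A chemokine as low as that in both groups was not tested. A call is an adjusted p (Benjamini-Hochberg, over all genes of the fit) below 0.05, and all fold changes compare sh-JMJD1C with control.

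CXCL2 (ENSG00000081041, hg38 chromosome 4, 74097035 to 74099293, minus strand) lies in the chemokine cluster of that chromosome. It had 10, 39 and 42 reads in control 1 to 3 and 1 read in each of the 3 sh-JMJD1C libraries. In scaled FPKM these were 8.94, 6.81 and 4.58 against 0.240, 0.279 and 0.292. The groups did not overlap, and the lowest control (4.58) stood far above the highest sh-JMJD1C library (0.292). The same separation shows in the exact 95% binomial intervals, which cover counting error only: the lower limit was 8.81 RPM in control 1 and 10.2 RPM in control 3, and the highest upper limit in the sh-JMJD1C libraries was 3.36 RPM. The control mean of 6.78 ± 2.18 compared with 0.270 ± 0.0269 under sh-JMJD1C, 3.99% of the control mean. In bulk RNA, fewer expressing cells and less RNA per cell cannot be told apart.

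The limma estimate for CXCL2 was -3.20 on the log2 scale (SE 0.34, adjusted p = 0.0444), on a log2(value + 0.5) scale that understates the change of low genes. On reads limma-voom gave -3.82 (SE 0.99, adjusted p = 0.0469). CXCL2 has a short messenger RNA, with a longest annotated transcript of 1218 bases. With each library's trend over transcript length removed, the difference was -4.63 (limma-voom adjusted p = 0.0285). Leaving out single libraries ended the limma call in 5 of 6 cases, at an adjusted p of 0.0679 with control 1 left out, 0.153 with control 2, 0.130 with control 3, 0.283 with sh-JMJD1C 2 and 0.277 with sh-JMJD1C 3. It stayed past the threshold with sh-JMJD1C 1 left out (0.0438). The limma-voom call ended with control 1 left out (adjusted p = 0.138), with control 3 (0.0760), with sh-JMJD1C 2 (0.217) and with sh-JMJD1C 3 (0.149), but not with control 2 (0.0401) or sh-JMJD1C 1 (0.0459). The log2 fold change stayed between -4.29 and -3.03 over all these single removals.

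The other chemokines gave almost no reads. CXCL1 (ENSG00000163739, chromosome 4, 73869393 to 73871242) had 0 in every library, which allows up to 5.51 RPM in control 1 and 1.01 to 1.81 RPM in the other 5 (3 reads). CXCL3 (chromosome 4, 74036589 to 74038807) had 4 reads in control 2, 2 in sh-JMJD1C 1 and 1 in sh-JMJD1C 3, and 0 elsewhere. CXCL8 (chromosome 4, 73740506 to 73743716), which encodes interleukin 8, had 7 reads in control 3 and 1 in sh-JMJD1C 2, and 0 elsewhere. CCL2 (chromosome 17, 34255218 to 34257203) had 0, 4 and 3 reads in the controls (1 to 3 in order) against 3, 1 and 0 in sh-JMJD1C 1 to 3.

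For those 4 genes the depth leaves wide intervals, and a difference inside them was not detectable. The ratio of controls to sh-JMJD1C, each as summed reads over the summed library totals after median-ratio scaling, was 4.63 for CXCL8 (exact 95% interval 0.595 to 209), 0.882 for CXCL3 (0.149 to 6.02) and 1.16 for CCL2 (0.294 to 5.39). The GRO genes are close copies, so the share of reads given to each one is uncertain. Of the distinct 50-base windows in annotated CXCL2 transcripts, 12.5% also occur in another of the 10 genes, against 4.81% for CXCL1 and 6.01% for CXCL3. Of 22 other chemokine ligands, 16 had 0 reads throughout and 2 had enough for a test. CCL28, a mucosal chemokine, had 86 control and 17 sh-JMJD1C reads (log2 fold change -1.90, limma-voom adjusted p = 0.110). CXCL16, a membrane-bound chemokine, had 55 and 41 (0.68, adjusted p = 0.544). The receptors CXCR1, CXCR2, CCR2, CCR4, ACKR1 and ACKR2 had 1 read between them, from CXCR2.

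The inhibitors of NF-kB did not move together. NFKBIA (ENSG00000100906, chromosome 14, 35401511 to 35404749, minus strand) had 6, 53 and 119 reads in the controls (1 to 3 in order) against 103, 121 and 96 in sh-JMJD1C 1 to 3. In scaled FPKM these were 1.35, 2.33 and 3.27 against 6.23, 8.49 and 7.06, with no overlap between the groups. The means were 2.32 ± 0.959 and 7.26 ± 1.14. On reads NFKBIA rose by a log2 fold change of 1.58 (SE 0.41, 3.00-fold, limma-voom adjusted p = 0.0456). The limma fit gave 1.51 (SE 0.37, adjusted p = 0.132), which did not pass.

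The rise of NFKBIA depended on how transcript length was treated. Its longest transcript has 1558 bases, and with the length trend removed the log2 fold change was 0.89 (SE 0.39, limma-voom adjusted p = 0.177). Scaling by library totals gave 1.20 (adjusted p = 0.109). Leaving out any library but sh-JMJD1C 1 (limma-voom adjusted p = 0.0173) ended the call: the adjusted p was 0.147 with control 1 left out, 0.0621 with control 2, 0.125 with control 3, 0.171 with sh-JMJD1C 2 and 0.0999 with sh-JMJD1C 3. The log2 fold change of NFKBIA was above 0 in all 27 alternatives run, from 0.89 to 1.77.

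NFKBIZ (ENSG00000144802, chromosome 3, 101827991 to 101861022, plus strand) had 40, 104 and 275 reads in the controls (1 to 3 in order) against 29, 18 and 11 in sh-JMJD1C 1 to 3. In scaled FPKM these were 4.97, 2.52 and 4.17 against 0.968, 0.697 and 0.446, so that the highest sh-JMJD1C library was below the lowest control. The means were 3.89 ± 1.248 and 0.704 ± 0.261. On reads NFKBIZ fell by 2.31 on the log2 scale (SE 0.47, 4.97-fold, limma-voom adjusted p = 0.0253). It fell by 2.16 with the length trend removed (adjusted p = 0.0328). The limma fit gave -1.85 (SE 0.37, adjusted p = 0.103), which did not pass.

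For NFKBIZ the limma-voom call ended with control 1 left out (adjusted p = 0.1002), with control 3 (0.0879), with sh-JMJD1C 2 (0.123) and with sh-JMJD1C 3 (0.0790). It held without control 2 (0.0183), without sh-JMJD1C 1 (0.0124) and without both libraries numbered 1 (0.0485). The log2 fold change lay between -2.75 and -1.50 in all 27 alternatives.

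TNFAIP3 (ENSG00000118503, chromosome 6, 137867188 to 137883312) had 1.83, 2.21 and 1.93 scaled FPKM in the controls (1 to 3 in order) against 3.85, 1.598 and 1.62 in sh-JMJD1C 1 to 3. The sh-JMJD1C libraries lay on both sides of the controls, with sh-JMJD1C 1 the highest of all 6. The limma log2 fold change was 0.11 (SE 0.39, adjusted p = 0.882). Without sh-JMJD1C 1 it was -0.22, and with all libraries kept it was -0.13 for FPKM as deposited, so its sign is not resolved.

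The subunit genes overlapped between the groups. NFKB1 (ENSG00000109320, chromosome 4, 102501329 to 102617302) had 1.43, 2.56 and 2.93 scaled FPKM in the controls (1 to 3 in order) against 3.30, 2.49 and 2.31 in sh-JMJD1C 1 to 3. The limma log2 fold change was 0.22 (SE 0.35, adjusted p = 0.736), and it was -0.06 without control 1 and -0.05 for FPKM as deposited. RELA (ENSG00000173039, chromosome 11, 65653596 to 65663094) had 2.74, 5.82 and 2.40 against 7.20, 4.55 and 3.47. Its limma log2 fold change was 0.46 (SE 0.44, adjusted p = 0.559).

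**Figure D2:**
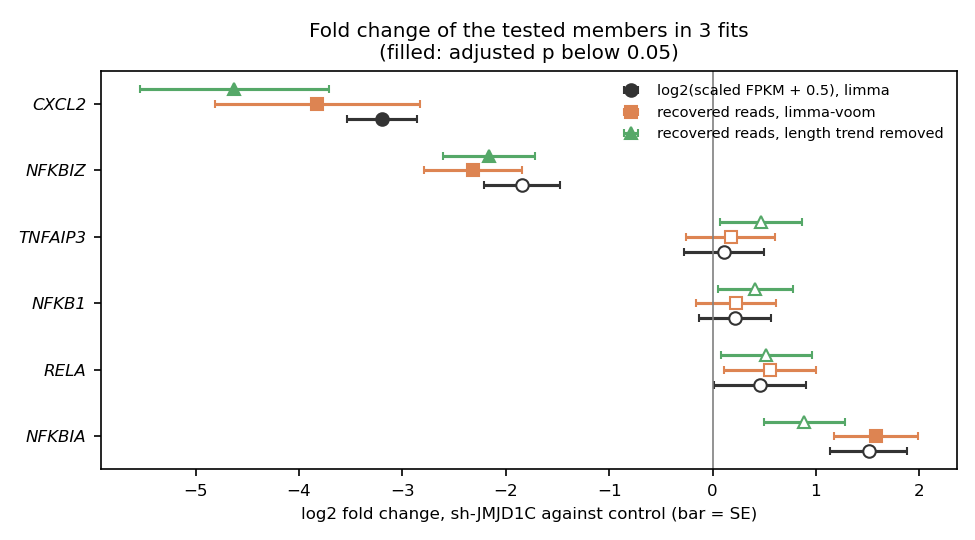
Log2 fold change (horizontal axis, bar = SE) of the 6 tested members in the limma fit on FPKM (circles), limma-voom on recovered reads (squares) and limma-voom with the length trend removed (triangles). Filled symbols have an adjusted p below 0.05: CXCL2 in all 3 fits, NFKBIZ in both fits on reads and NFKBIA in 1. TNFAIP3, NFKB1 and RELA have open symbols only, at 0.11 to 0.55.

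The groups did not overlap for 3 of the 6 tested members (CXCL2, NFKBIZ and NFKBIA), against 26.7% of the 18383 genes tested (12.2% higher and 14.5% lower). For each of these 3 genes a two-sided exact permutation test gave p = 0.10, the smallest that 3 libraries against 3 allow. Groups that do not overlap always give this p, so the test adds nothing to the separation. With the length trend removed, limma-voom called 2 of the 6 (CXCL2 and NFKBIZ), against 3.42% of 11857 genes (2.34% higher and 1.07% lower). These shares, too, are for members chosen with earlier results of these data known, and do not measure enrichment. Without both libraries numbered 1, which are the smallest control and the sh-JMJD1C library nearest to the controls in RN7SL share, limma called 0 of the 6 (lowest adjusted p = 0.0906, for CXCL2), with 4236 genes at an unadjusted p under 0.05. Limma-voom then called 1, NFKBIZ. The scaling matters for the size of all fold changes: their median over all genes was -0.16 in the limma fit against -0.38 for FPKM as deposited, and -0.08 on reads against -0.52 with library totals.

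Ratios of reads between members within 1 library need no scaling between libraries, but they keep each library's trend over transcript length. The longest annotated transcripts have 1218 bases for CXCL2, 1558 for NFKBIA, 3923 for NFKBIZ and 4085 for NFKB1. NFKBIZ had 6.67, 1.96 and 2.31 reads per read of NFKBIA in the controls (1 to 3 in order) against 0.282, 0.149 and 0.115 in sh-JMJD1C 1 to 3. Thus NFKBIZ gave more reads than NFKBIA in every control and fewer in every sh-JMJD1C library. CXCL2 had 1.67, 0.736 and 0.353 reads per read of NFKBIA in the controls against 0.00971, 0.00826 and 0.0104.

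Against NFKB1, whose level overlapped, the order was similar. NFKBIZ had 0.812 to 2.86 reads per read of NFKB1 in the controls against 0.159 to 0.242. NFKBIA had 0.414 to 0.506 and 0.858 to 1.55, with no overlap between the groups. The log2 fold changes of NFKBIA and NFKB1 were 1.58 and 0.23 on reads. With the length trend removed they lay closer together, at 0.89 and 0.41. TNFAIP3 per NFKB1 read ranged from 0.774 to 1.5 in the controls and from 0.756 to 1.38 otherwise, which overlap. NFKBIA per RELA read also overlapped, at 0.122 to 0.415 against 0.263 to 0.619. These pairs were chosen after their values were seen and were not tested, and a ratio shows unequal change without saying which of the 2 genes moved.

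**Figure D3:**
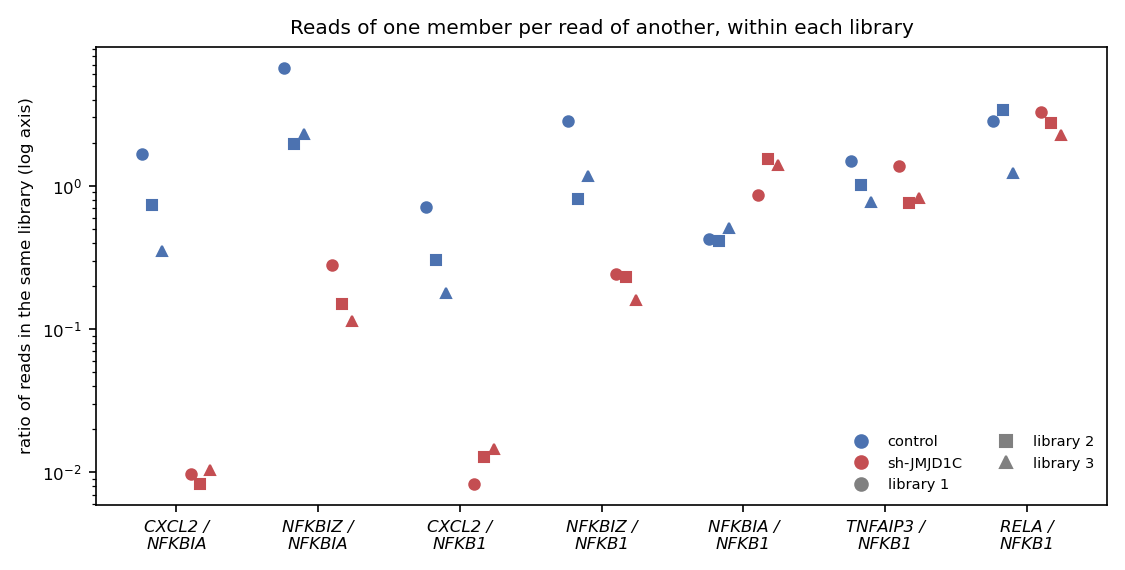
Reads of one gene per read of another in the same library (log axis) for 7 pairs, control in blue and sh-JMJD1C in red, with the symbol giving the library number. The ratios of CXCL2 and NFKBIZ to NFKBIA and to NFKB1 are lower in every sh-JMJD1C library, NFKBIA to NFKB1 is higher, and the last 2 pairs overlap.

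To compare levels between genes, scaled RPM was divided by the longest annotated transcript in kilobases, since the deposited FPKM divides by the summed length of all transcripts of a gene. On this scale the order in the controls was RELA (34.8 ± 18.1), NFKBIZ (16.6 ± 5.50), NFKBIA (13.6 ± 5.23), CXCL2 (12.98 ± 4.54), NFKB1 (11.4 ± 3.58) and TNFAIP3 (10.005 ± 1.004). From NFKBIZ down to TNFAIP3, neighbours differed by less than their spread. In the sh-JMJD1C libraries the order was RELA (49.9 ± 18.1), NFKBIA (44.7 ± 7.95), NFKB1 (13.9 ± 2.50), TNFAIP3 (12.3 ± 6.52), NFKBIZ (3.10 ± 1.11) and CXCL2 (0.535 ± 0.0602), where RELA and NFKBIA, and NFKB1 and TNFAIP3, differed by less than their spread.

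The genes whose profile over the 6 libraries came closest to that of CXCL2 were sought among 10205 protein-coding genes, by the root mean square difference of centred log2 levels. They were TRIM66, a chromatin-binding tripartite motif protein (difference 0.38), SLFN5, an interferon-inducible Schlafen protein (0.39), and DNAH1, an axonemal dynein heavy chain (0.43). Levels were compared with the length trend left in, and the longest transcripts have 10688, 10591 and 13300 bases, against 1218 for CXCL2. With that trend removed, their log2 fold changes were -3.27, -2.68 and -2.06, against -4.63 for CXCL2. Since CXCL2 had 1 read in each sh-JMJD1C library, its profile there carries the counting error of single reads, and the order of these 3 is not resolved. Of the other members, which were compared apart from the 10205 genes, NFKBIZ lay closest to CXCL2, at 0.86. Closest to NFKBIA were the flap endonuclease gene FEN1 (0.14), RACGAP1, a GTPase-activating protein of cytokinesis (0.17), and the asparaginase-like ASRGL1 (0.18). The other NF-kB genes lay farther from NFKBIA, with NFKB1 at 0.77, RELA at 0.89, TNFAIP3 at 1.01 and NFKBIZ at 2.17. With the length trend removed, FEN1, RACGAP1 and ASRGL1 had log2 fold changes of 1.18, 1.80 and 1.16, against 0.89 for NFKBIA. With 6 libraries in 2 groups, such likeness mainly shows a similar difference between the groups.

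Around the members, 135 other genes of the pathway were read from the same fits, in 9 lists with data for a test: chemokine ligands, inflammatory cytokines, other NF-kB and IkB proteins, the IKK complex and its kinases, receptors and adaptors, ubiquitin editors, NF-kB targets, RNA decay factors, and transcription factors at chemokine promoters. Limma called 0 of the 91 tested, with 17 at an unadjusted p under 0.05, beside 3658 of all 18383 genes. Limma-voom on reads called 3 of 92 (3.26%), which is no more than the 5.52% over all genes. On reads 25 of the 92 had an unadjusted p under 0.05, beside 3657 of all 11877 genes. With the length trend removed limma-voom called 0 of 92, with 23 at an unadjusted p under 0.05, beside 3106 of 11857 genes. The unadjusted counts of single lists below are to be read beside these counts over all genes. The median log2 fold change on reads was -0.11 over the 92 genes, beside -0.08 over all genes.

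IL32, a proinflammatory cytokine gene and an NF-kB target, rose on reads. It had 25.6, 52.5 and 18.6 scaled RPM in the controls (1 to 3 in order) against 90.3, 245 and 180 in sh-JMJD1C 1 to 3, with no overlap (log2 fold change 2.41, limma-voom adjusted p = 0.0279, and 1.65 with adjusted p = 0.0514 once the length trend was removed). The cytokines IL6, LIF and CSF1, the last a growth factor of macrophages, had log2 fold changes on reads of -0.60, -1.14 and -1.74 and did not pass (limma-voom adjusted p = 0.379, 0.185 and 0.134). IL6 had -1.29 with the length trend removed (adjusted p = 0.101). Of the 4 cytokine genes tested on reads, 1 rose and 3 did not pass. TNF and CSF2 had 3 and 0 reads in all.

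In the IKK list, 1 of 11 genes rose on reads, 1 fell and 9 did not pass. IKBKG, the regulatory subunit NEMO, went from 19.9 ± 4.50 to 57.0 ± 11.7 scaled RPM (log2 fold change 1.56, limma-voom adjusted p = 0.0472). IKBKG has a near-identical pseudogene copy, so its share of reads is uncertain. TAB3, a ubiquitin-binding partner of the TAK1 kinase, had 64.0, 57.3 and 58.4 scaled RPM in the controls (1 to 3 in order) against 35.8, 4.80 and 5.62 in sh-JMJD1C 1 to 3 (-2.46, adjusted p = 0.0451). With the length trend removed neither passed (1.19 with adjusted p = 0.0815 for IKBKG and -1.76 with 0.0839 for TAB3). IKBKB, the catalytic subunit IKK-beta, and TAB2 had log2 fold changes of -0.47 and -1.34 and did not pass on reads (adjusted p = 0.382 and 0.0997).

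Of the other NF-kB and IkB genes, 0 of 6 were called by limma-voom (3 at an unadjusted p under 0.05) and 0 of 7 by limma (3 likewise). NFKB2, which encodes the p100 precursor of the non-canonical pathway, went from 70.2 ± 25.4 to 159 ± 30.4 scaled RPM (log2 fold change 1.16, limma-voom adjusted p = 0.0793). BCL3, a nuclear IkB protein like IkB-zeta, had 1.24 (adjusted p = 0.113), and NFKBIB, which encodes IkB-beta, had -1.002 (0.227).

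Among the ubiquitin editors, limma-voom called 0 of 11 (4 at an unadjusted p under 0.05) and limma 0 of 9 (3 likewise). TNIP1, the A20-binding protein ABIN1, went from 122.6 ± 35.6 to 246 ± 43.9 scaled RPM (limma-voom adjusted p = 0.101). TAX1BP1, an A20 partner, had a log2 fold change of -1.26 (0.0961), and the deubiquitinase gene OTULIN had -0.41 (0.492), which turned to 0.28 with the length trend removed. Of 16 further NF-kB targets measured, limma-voom called 0, with 1 at an unadjusted p under 0.05, and their median was 0.19. Among the abundant ones were SQSTM1 (0.31), an autophagy receptor gene, and CD44 (-0.03, or 0.43 with the length trend removed).

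Factors that act on chemokine messenger RNA or at chemokine promoters were not called either. Of 11 RNA decay and stabilizing factors limma-voom and limma each called 0, with 0 at an unadjusted p under 0.05 and a median of -0.50 on reads, which was -0.01 with the length trend removed. KHSRP, a protein that promotes decay of AU-rich transcripts, had a log2 fold change of 0.72 (limma-voom adjusted p = 0.227), ELAVL1, which encodes the stabilizing protein HuR, had 0.71, and HNRNPD (AUF1) had 0.05. Of 16 transcription factors and coactivators 0 were called in either fit, with 4 at an unadjusted p under 0.05 in each and a median of -0.10 on reads, and CUX1 and PARP1, both abundant, had -0.95 and 0.41, which were 0.01 and 0.57 with the length trend removed. Of 15 receptors and adaptors 0 were called by limma-voom, with 4 at an unadjusted p under 0.05. The most abundant of them, the adaptor kinase gene IRAK1, had 0.94 (adjusted p = 0.127), followed by LTBR (-0.10) and TRAF2 (0.35, or -0.04 with the length trend removed).

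**Figure D4:**
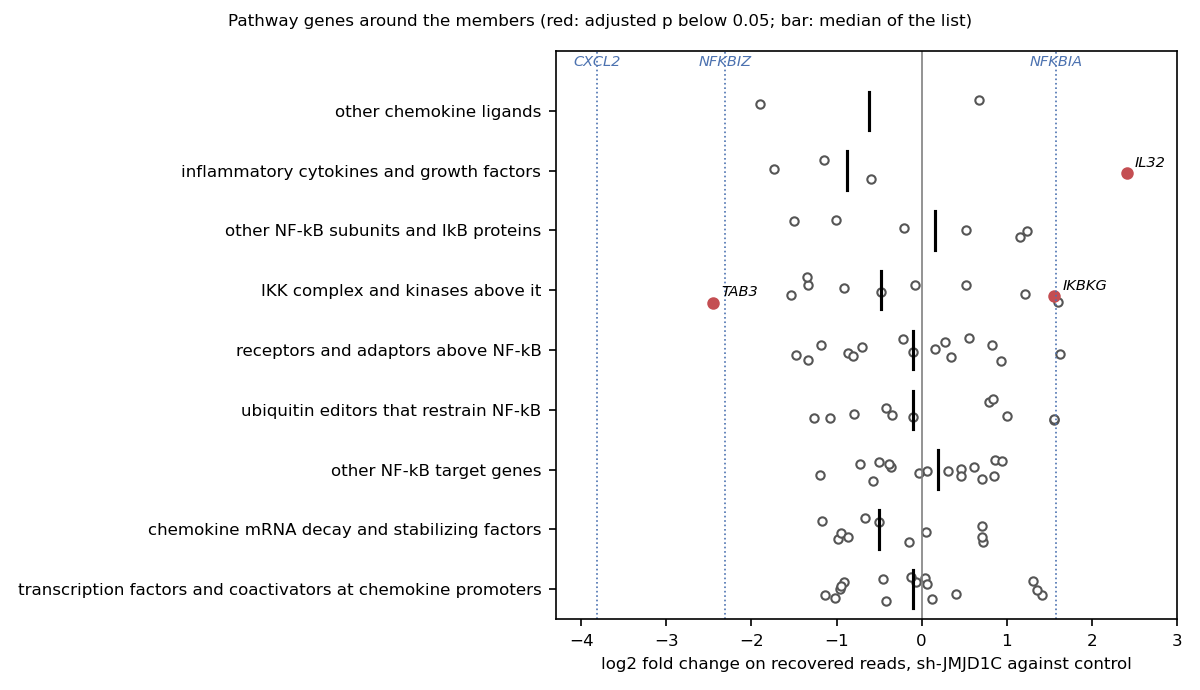
Log2 fold change on recovered reads (horizontal axis) of every tested gene in 9 pathway lists, with the median of each list as a black bar and the values of CXCL2, NFKBIZ and NFKBIA as dotted lines. IL32, TAB3 and IKBKG (red) had an adjusted p below 0.05, and CXCL2 lay below every gene of the lists.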

How the data were processed

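The authors deposited FPKM per gene for each library, per the file headers, on the full library and on rising shares of its reads. Bowtie 0.12.2 and build hg38 come from the submitters' processing notes, which give no role for them. How reads were counted, and with what tool, is not given in the sources used here. The 10 genes and the pathway lists were chosen with earlier results of these data known. From each list the called genes and up to 3 of the highest level were named, except some that are not reported here. Coordinates and transcript lengths are from GENCODE on hg38.

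The test was limma 3.58.1 (R 4.3.3, trend) on log2(FPKM / median-ratio factor + 0.5), for genes with a mean deposited FPKM of at least 0.5, with Benjamini-Hochberg adjustment. Library totals were inferred here from the FPKM of genes with 1 transcript, and reads are FPKM times length times total. The summed length of a gene's transcripts made the values whole for 93.9% of detected genes, and a fitted length was used for others. With these lengths 100.0% of values under 1000 reads were whole within 0.05. Limma-voom was fitted to them for genes with at least 60 reads (656 of 11877 called), also after removing each library's lowess trend (span 0.3) over longest-transcript length. The scripts were tested on simulated data. SOD2 could not be matched by ID. Intervals are exact binomial, at 95%, and the limit for a count of 0 is 3 reads.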

Additional observations from a re-analysis of the deposited data

How the results depend on the processing

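Over 27 alternatives the log2 fold changes of CXCL2 (below 0), NFKBIZ (below 0), NFKBIA (above 0) and RELA (above 0) kept their sign, and RELA was never called. The number of genes called, 34 in the limma fit, was 84 with a pseudocount of 0.1, 0 with a pseudocount of 1, 0 with no filter on low values, 911 with protein-coding genes only, 79 for FPKM as deposited, 2 with quantile normalization and 118 with array weights. At those counts of 0, 3587 and 3821 genes had an unadjusted p under 0.05. On reads it was 656, 405 with the length trend removed and 1195 with library totals. The share of calls that were higher in sh-JMJD1C was 32.4% in the limma fit, 26.6% as deposited, 50% with quantile normalization, 67.2% on reads and 26.0% with library totals. Without both libraries numbered 1, the number of genes called was 0 in the limma fit (4236 at an unadjusted p under 0.05). On reads it was 895, and this alternative on reads was chosen after seeing the data. Leaving out 1 library gave 0 to 475 genes (475 without sh-JMJD1C 1), and on reads 31 to 2334, with 2334 without sh-JMJD1C 1, 1288 without control 2 and 97 without sh-JMJD1C 3. The causes were not tested.

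The number of the 10 genes called, 1 in the limma fit, was 0 with a pseudocount of 1, no filter, quantile normalization or without both libraries numbered 1, 3 with protein-coding genes only or on reads, 2 with the length trend removed or library totals, and 0 to 3 when 1 library was left out. CXCL2 was not called with a pseudocount of 1 (-2.57), no filter (-3.20), quantile normalization (-3.06), or without both libraries numbered 1 (-3.01, and -3.60 on reads). NFKBIA was called with protein-coding genes only (1.51) and on reads (1.58). NFKBIZ was called with protein-coding genes only (-1.85), on reads (-2.31), with the length trend removed (-2.16), with library totals (-2.75) and on reads without both libraries numbered 1 (-2.42). NFKB1 turned to -0.049 as deposited, -0.14 with library totals and -0.20 and -0.10 (reads) without both libraries numbered 1. TNFAIP3 turned to -0.13 as deposited, -0.071 with array weights, -0.24 with library totals and -0.32 and -0.25 (reads) without both libraries numbered 1. Leaving out 1 library gave -3.42 to -3.03 for CXCL2, -2.08 to -1.67 for NFKBIZ, 1.21 to 1.70 for NFKBIA, -0.064 to 0.342 for NFKB1 and -0.221 to 0.333 for TNFAIP3. On reads it gave -4.29 to -3.68 for CXCL2 (-3.72 without control 1, -3.80 without sh-JMJD1C 2 and -3.86 without sh-JMJD1C 3), -2.64 to -2.02 for NFKBIZ (-2.54 without sh-JMJD1C 1), 1.44 to 1.77 for NFKBIA (1.69 without sh-JMJD1C 1), 0.039 to 0.345 for NFKB1 and -0.223 to 0.413 for TNFAIP3.

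The labels do not say whether same-numbered libraries were handled together. Their deviations from the group means correlated at 0.01, 0.14 and 0.23, against -0.27 to 0.13 for libraries of different number. Not every library correlated best with its own number. With a replicate block limma called 0 genes (4406 at an unadjusted p under 0.05) and 0 of the 10, CXCL2 at -3.20 (adjusted p = 0.0924). On reads limma-voom with the replicate block called 4260 genes and 3 of the 10, with NFKBIA at 1.64 and NFKBIZ at -2.39.

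Depth limits the chemokines other than CXCL2: a count of 0 allows up to 5.51 RPM in control 1.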

Other observations

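Of the 91 pathway genes outside the 10 that limma tested, 31 (34.1%) had groups that did not overlap, against 26.7% of all genes tested. The 4 of these with the lowest limma-voom adjusted p, beyond the genes already named, are given as values chosen after they were seen, and none passed the test. HDAC1, a histone deacetylase gene, had 534 control and 932 sh-JMJD1C reads (log2 fold change 1.42, limma-voom adjusted p = 0.0549, or 1.10 with the length trend removed). MYD88, the adaptor of Toll-like and interleukin 1 receptors, had 57 and 123 reads (1.63, adjusted p = 0.0599, or 1.63). TRAFD1, a negative regulator of innate immune signalling, had 202 and 431 reads (1.56, adjusted p = 0.0671, or 1.53). MAP3K7, which encodes the TAK1 kinase, had 256 and 52 reads (-1.54, adjusted p = 0.0716, or -1.22).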
